A study of Mus musculus with 7 samples.

Results

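The oxygen-sensing genes described here were 9 of the 19938 genes compared: the hypoxia-inducible factor (HIF) subunits Hif1a, Epas1, Hif3a and Arnt, the prolyl hydroxylases Egln1, Egln2 and Egln3, the ubiquitin ligase component Vhl and the asparagine hydroxylase Hif1an. Each was taken by its gene symbol in the platform annotation, through the probe set with the highest mean over all 7 arrays, and each of the 9 had 1 probe set with a single symbol. RNA came from the extensor digitorum longus, which is mostly fast-twitch fibres and lies in the lower hindlimb, of 4 wild type mice and 3 AMPKα1α2 double knockout mice, with 1 single-colour array per mouse. AMPK, the AMP-activated protein kinase, responds to a shortage of cellular energy, and α1 and α2 are its catalytic subunits. The strain was a C57/Bl6 and SV129 mixed background for both genotypes. The title of the series concerns AMPK and the use of fatty acids by muscle during exercise, and the comparison here asks how the transcripts of the oxygen-sensing pathway differed between the genotypes. The labels give no age or sex, and they do not say whether the muscles had been exercised or in which cells the kinase was deleted.

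HIF is a transcription factor made of an oxygen-sensitive α subunit and the stable partner Arnt. In the presence of oxygen the Egln enzymes hydroxylate prolines of the α subunit, Vhl binds the hydroxylated protein, and the proteasome destroys it. Hif1an hydroxylates an asparagine and so keeps the α subunit from its coactivators. When oxygen is scarce the α subunit persists, pairs with Arnt and switches on genes for glycolysis, vessel growth and red cell production, together with Egln1 and Egln3 themselves, which closes a feedback loop. This control acts mainly on the protein, which the arrays did not measure.

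The start regions of the 3 prolyl hydroxylase genes are shown because HIF recognises a short core motif that begins with A or with G, and because Egln1 and Egln3 are themselves known HIF targets. Each line gives the 250 bases before the gene's start in RefSeq, 5′ to 3′ on the strand of the gene, in build GRCm38.p6, with either form of the motif in capitals on whichever strand it was read. The A form is ACGTG. The G form is spelled GCGTG, and reads as CACGC from the opposite strand. Egln1 lies on the minus strand at chr8:124949255-124949504, Egln2 on the minus strand at chr7:27166803-27167052 (1 of its 2 listed starts), and Egln3 on the minus strand at chr12:54203875-54204124.
Egln1: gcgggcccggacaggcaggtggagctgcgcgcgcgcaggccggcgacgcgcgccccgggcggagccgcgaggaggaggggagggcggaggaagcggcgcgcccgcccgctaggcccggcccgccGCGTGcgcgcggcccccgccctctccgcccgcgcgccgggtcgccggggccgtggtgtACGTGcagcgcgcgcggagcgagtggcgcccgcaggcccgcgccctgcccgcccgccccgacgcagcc
Egln2: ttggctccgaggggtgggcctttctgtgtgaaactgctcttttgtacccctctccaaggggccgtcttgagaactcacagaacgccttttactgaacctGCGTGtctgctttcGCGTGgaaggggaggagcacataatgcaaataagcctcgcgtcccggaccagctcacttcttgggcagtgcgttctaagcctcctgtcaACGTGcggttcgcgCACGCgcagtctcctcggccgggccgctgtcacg
Egln3: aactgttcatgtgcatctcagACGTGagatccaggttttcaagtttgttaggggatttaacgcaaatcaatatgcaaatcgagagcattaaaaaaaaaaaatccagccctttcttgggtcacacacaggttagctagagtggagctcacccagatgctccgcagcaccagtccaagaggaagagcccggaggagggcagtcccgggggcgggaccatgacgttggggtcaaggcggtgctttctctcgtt
The Egln1 window held 1 A form and 1 G form, the Egln2 window 1 A form and 3 G forms, and the Egln3 window 1 A form. The A form is also contained in the palindrome CACGTG, which other helix-loop-helix factors bind, and none of these 3 windows held that longer word. Of all 32851 listed windows of this length, 16.6% held the A form and 28.2% the G form on either strand, so the letters are common. Entries were found for 8 of the 9 genes. The Hif1a window held 3 A forms, of which 2 were the opposite strands of 1 palindrome, the Hif3a window 2 G forms and the Arnt window 1 G form, while the Vhl and Hif1an windows held no match. A match describes the letters and does not show that HIF binds there.

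On these arrays Epas1 and Egln1 were lower in every knockout muscle than in every wild type muscle, Hif1a was high in 1 knockout muscle, Egln3 was spread widely among the knockouts, and the other 5 genes differed by less than 0.03 on the log2 scale. None of the 9 passed an adjusted p of 0.05 in limma (Benjamini-Hochberg over every probe set tested), a threshold that 0.0251% of all genes passed, 0.0201% higher and 0.00502% lower. None passed an adjusted p of 0.10 in the main limma fit either, where 0.361% of all genes did. After quantile normalization both Epas1 (limma adjusted p = 0.085) and Egln1 (limma adjusted p = 0.081) did, and so did Egln1 without knockout replicate 1 (limma adjusted p = 0.090). The share of all genes under 0.10 was not counted in these alternative fits. At an adjusted p under 0.05 in limma, 5 genes passed in the main fit, 6 after quantile normalization and 14 without knockout replicate 1. At an unadjusted p under 0.05 in the main limma fit there were 2 of the 9, both lower. Among all genes 6.69% were lower, 3.93% higher and 10.6% in either direction. The genotypes did not overlap for the same 2 genes, both lower in the knockout, while 5.33% of all genes were lower, 3.29% higher and 8.61% in either direction without overlap. The median difference of the 9 genes was -0.01, beside -0.005 for all genes.

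**Figure D1:**
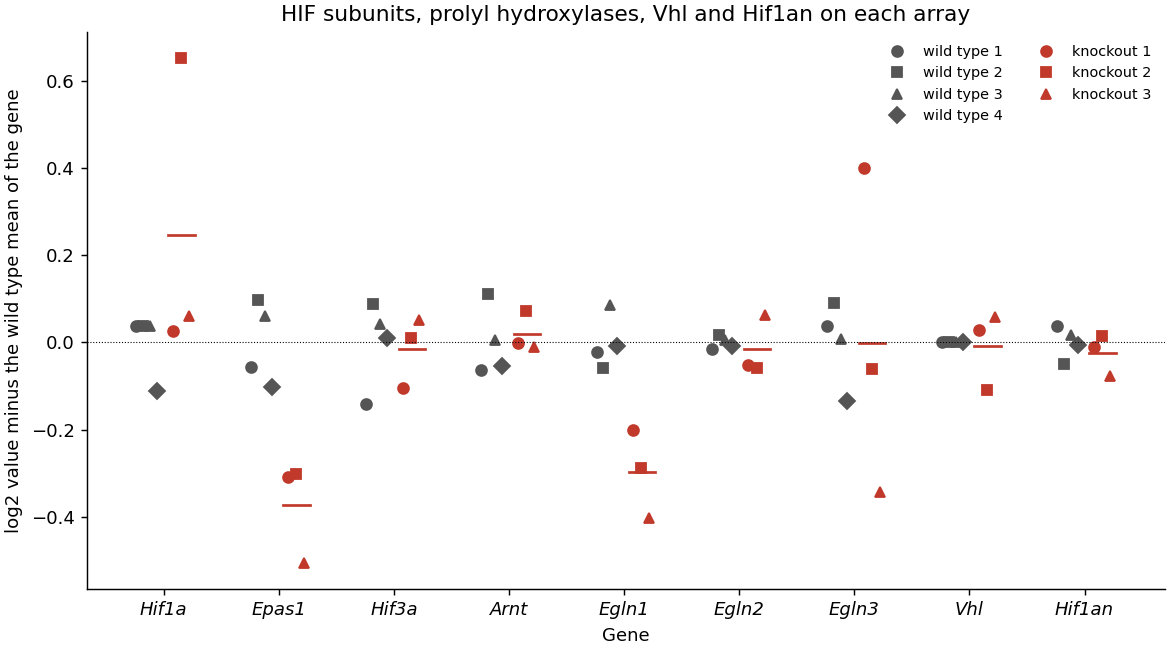
The vertical axis gives the log2 value of each gene on each array minus the mean of that gene in the 4 wild type arrays, with grey symbols for wild type, red symbols for knockout and a red line at the mean of the 3 knockout arrays. All red symbols of Epas1 and Egln1 lie below all grey ones, knockout replicate 2 stands alone for Hif1a, and the red symbols of Egln3 lie on both sides of the grey ones.

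The α subunits were read first. Epas1 encodes HIF-2α, the α subunit that is prominent in vascular endothelium and in the control of erythropoietin (probe set 10447317). It read 11.03, 11.18, 11.15 and 10.98 in wild type replicates 1 to 4 and 10.78, 10.78 and 10.58 in knockout replicates 1 to 3, all on the log2 scale. The groups did not overlap, and knockout replicate 3 was the lowest array. The wild type mean was 11.09 ± 0.09 (SD, n = 4) and the knockout mean 10.71 ± 0.12 (SD, n = 3). They differed by -0.37 ± 0.07 (SE) on the log2 scale, which is 1.30-fold lower in the knockout, with an unadjusted 95% interval from -0.54 to -0.20. In limma with Benjamini-Hochberg adjustment the adjusted p was 0.14, so it did not pass, and 180 of the 19938 genes had a smaller p. The difference stayed between -0.41 and -0.31 when any 1 array was left out.

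Epas1 is a gene of vessels as well as of muscle fibres, and vessel markers had lower means in the same arrays. All 18 measured endothelial markers lay below wild type on average. Of these, 12 were lower at an unadjusted p under 0.05 in limma, beside 6.69% of all genes. At an adjusted p under 0.05 there were 0, and their median difference was -0.25. Their mean level ran from 9.28 to 9.40 in the wild type arrays and from 9.05 to 9.12 in the knockout arrays. Ptprb, a receptor phosphatase of endothelium, differed by -0.38 ± 0.05, and Cdh5, the cadherin of endothelial junctions, by -0.32 ± 0.06. Of the 10 measured pericyte and smooth muscle markers, 5 were lower at that unadjusted level and 0 higher, beside 6.69% and 3.93% of all genes. Their mean level ran from 9.53 to 9.67 in wild type and from 9.39 to 9.45 in knockout arrays. Among them Notch3, a receptor of mural cells, differed by -0.29 ± 0.05, and the potassium channel gene Kcnj8 by -0.28 ± 0.05. In whole muscle RNA, fewer cells of a type and less RNA per cell cannot be told apart. Set against the endothelial mean of its own array, Epas1 stood at 1.67, 1.82, 1.75 and 1.71 log2 units above it in the wild type replicates and at 1.66, 1.74 and 1.53 in the knockout replicates. These values overlapped, and their group means were 1.74 ± 0.06 (SD, n = 4) and 1.64 ± 0.11 (SD, n = 3). The endothelial mean itself differed by -0.28, so the subtraction moves every gene upwards in the knockout by that amount. Arnt, which hardly differed before it, stood at 1.16 to 1.33 in wild type and at 1.47 to 1.61 in knockout arrays after it. An overlap after subtraction therefore cannot show which cells a difference came from. The part of vessel content in the Epas1 difference was not tested.

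**Figure D2:**
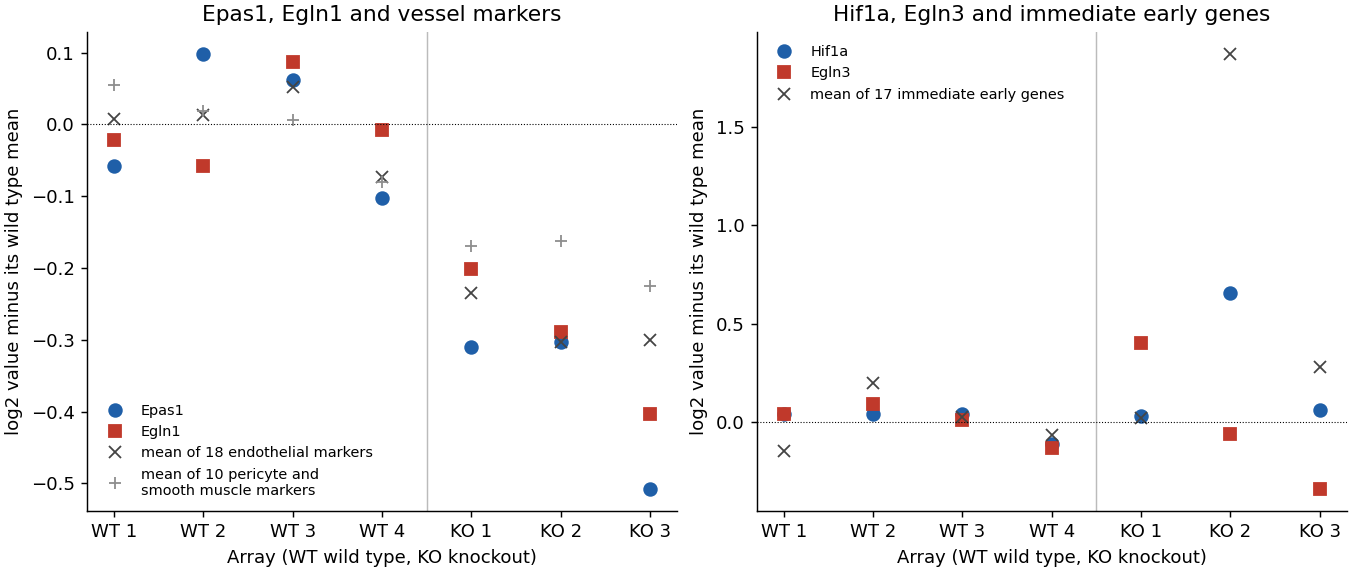
Both panels give log2 values per array minus their own wild type mean, with wild type arrays left and knockout arrays right of the grey line. On the left, Epas1, Egln1 and the mean of 18 endothelial markers lie below 0 in all 3 knockout arrays; on the right, Hif1a and the mean of 17 immediate early genes stand highest in knockout replicate 2, while Egln3 is highest in knockout replicate 1 and lowest in knockout replicate 3.

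Hif1a encodes HIF-1α, the widely expressed α subunit that drives glycolytic genes (probe set 10396421). It read 9.95, 9.96, 9.96 and 9.81 in wild type replicates 1 to 4 and 9.95, 10.57 and 9.98 in knockout replicates 1 to 3. Knockout replicate 2 was 0.59 log2 units above the next highest array, and the remaining 2 knockout arrays lay at the level of the wild type arrays. Such a distance in that array was reached by 0.823% of all genes. The mean difference of 0.25 ± 0.15 (SE; limma adjusted p = 0.65) came down to 0.04 ± 0.05 without knockout replicate 2. The same array set immediate early genes apart, which are transcribed within minutes of a stimulus. Of 17 measured, 16 were highest in knockout replicate 2, against 10.01% of all genes, and their mean level there was 10.39, beside 8.37 to 8.71 in the wild type arrays and 8.54 and 8.80 in knockout replicates 1 and 3. All 17 had a knockout mean above wild type, as did 9303 of all 19938 genes. Of the 17, 2 were higher at an unadjusted p under 0.05 in limma, beside 3.93% of all genes. Atf3, a stress-induced member of that list, read 12.35 in knockout replicate 2 and 10.12 and 10.57 in knockout replicates 1 and 3. Its wild type values ran from 8.41 to 10.02, so every knockout array lay above every wild type array, by a mean of 2.09 ± 0.61 (SE; limma adjusted p = 0.32). The part of that response in the Hif1a value was not tested.

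The genes whose array values followed Hif1a most closely were found by the root mean square distance between log2 values centred on each gene's mean over the 7 arrays. The nearest of 19937 genes were Map3k14, a kinase of noncanonical NF-κB signalling, at 0.036, Nfe2l2, the oxidative stress factor NRF2, at 0.048, and Ttpal at 0.048, where the median over all genes was 0.25. All 3 had their highest value in knockout replicate 2, which follows from choosing them by closeness to Hif1a on these arrays. Nfe2l2 read 10.41 there and between 9.60 and 9.83 in the other arrays.

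Hif3a encodes the third α subunit, whose splice forms include an inhibitor of the other α subunits (probe set 10560329). It read 6.69, 6.92, 6.87 and 6.84 in the wild type replicates, against 6.73, 6.84 and 6.88 in the knockouts. The groups overlapped almost fully, with a difference of -0.01 ± 0.06 (SE) and an interval from -0.17 to 0.14. Its signal was dim: 26.6% of all genes had a lower mean.

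Arnt, the stable partner of every α subunit (probe set 10494238), read 10.52, 10.69, 10.59 and 10.53 in the wild type replicates, against 10.58, 10.66 and 10.57 in the knockouts. The knockout values lay inside the wild type range, and the difference was 0.02 ± 0.05 (SE) with an interval from -0.10 to 0.14.

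The prolyl hydroxylases were read next. Egln1 encodes PHD2, the main oxygen sensor that marks HIF-α for destruction (probe set 10582712). It read 11.41, 11.37, 11.52 and 11.42 in wild type replicates 1 to 4 and 11.23, 11.14 and 11.03 in knockout replicates 1 to 3. The groups did not overlap, with a wild type mean of 11.43 ± 0.06 (SD, n = 4) and a knockout mean of 11.13 ± 0.10 (SD, n = 3). The log2 difference was -0.30 ± 0.06 (SE), or 1.23-fold lower, with an interval from -0.43 to -0.16. Its adjusted p in limma with Benjamini-Hochberg adjustment was 0.14, so it did not pass, and 178 genes had a smaller p. Without any 1 array the difference ran from -0.35 to -0.25. Egln1 is expressed in many cell types, muscle fibres among them, and 8 of the 18 endothelial markers had a more negative difference than Egln1. Relative to the endothelial mean of the same array it stood at 2.05, 2.01, 2.11 and 2.14 log2 units in wild type and at 2.11, 2.09 and 1.98 in knockout replicates, which overlapped. As for Epas1, such an overlap cannot show which cells the difference came from. The part of vessel content in the Egln1 difference was not tested.

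Egln2 encodes PHD1, a hydroxylase described in oxidative metabolism of muscle (probe set 10561170). It read 10.45, 10.49, 10.47 and 10.46 in the wild type replicates, against 10.42, 10.41 and 10.53 in the knockouts. The wild type values were nearly equal and lay inside the knockout range, and the difference was -0.02 ± 0.04 (SE) with an interval from -0.11 to 0.07.

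Egln3 encodes PHD3, a hydroxylase strongly induced by HIF itself (probe set 10400304). It read 10.89, 10.95, 10.86 and 10.72 in wild type replicates 1 to 4 and 11.26, 10.80 and 10.51 in knockout replicates 1 to 3. Knockout replicate 1 was 0.31 log2 units above all other arrays, a distance that 0.115% of all genes reached in that array. Knockout replicate 3 was 0.21 below all other arrays, a distance that 3.01% of all genes reached there. The knockout values therefore spanned 0.74 log2 units against 0.23 in wild type, and 98.1% of all genes varied less among the knockout arrays. The means were 10.86 ± 0.10 (SD, n = 4) in wild type muscle and, among the knockouts, 10.86 ± 0.38 (SD, n = 3), and the interval of the difference, from -0.39 to 0.38, left changes of either sign of that size undecided. By array left out, the difference ran from -0.20 without knockout replicate 1 to 0.17 without knockout replicate 3. The genes nearest to Egln3 in their array values were Rnf5, a membrane-anchored ubiquitin ligase, at a root mean square distance of 0.079, Sfr1, a recombination factor, at 0.086, and Iars, the cytosolic isoleucyl-tRNA synthetase, at 0.090, with a median of 0.23 over all genes. Rnf5 read 9.78, 9.48 and 9.16 in knockout replicates 1 to 3 and between 9.53 and 9.55 in wild type. That it was highest in the first and lowest in the third follows from its choice by closeness to Egln3.

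**Figure D3:**
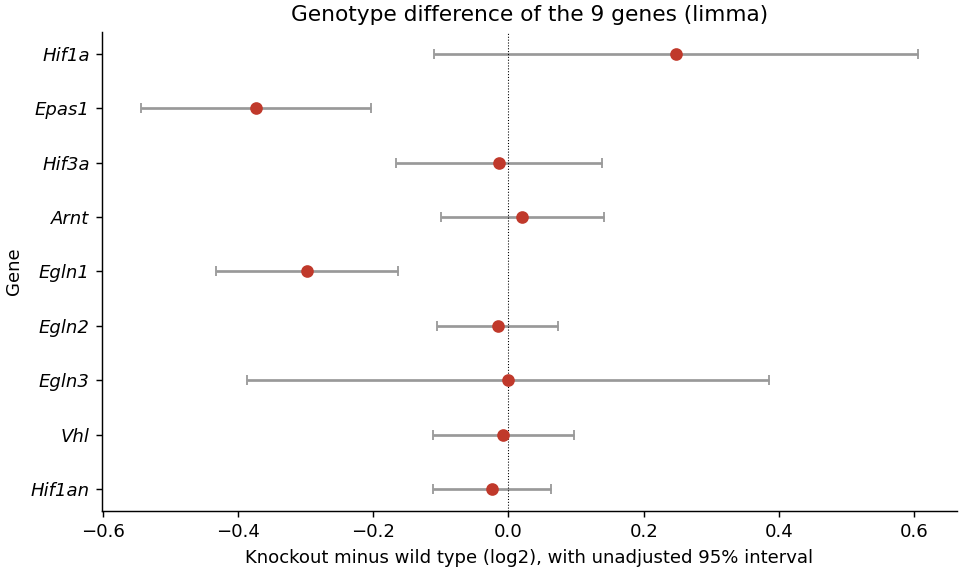
Points give the knockout minus wild type difference of each gene on the log2 scale and bars its unadjusted 95% interval from limma, with 4 wild type and 3 knockout arrays. The intervals of Epas1 and Egln1 lie below 0, those of Hif1a and Egln3 are the widest, and the remaining 5 are centred within 0.03 of 0.

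Vhl encodes the substrate-binding part of the ubiquitin ligase that recognises hydroxylated HIF-α (probe set 10540790). It read 7.983 on all 4 wild type arrays, to the last deposited digit, and 8.01, 7.88 and 8.04 in knockout replicates 1 to 3. A value shared by all 4 wild type arrays was found in 535 of the 28856 probe sets, or 1.85%, and exact repeats were common in the table: 11576 probe sets had 7 distinct values, and the rest repeated a value on at least 2 arrays. Hif1a repeated its value in wild type replicates 2 and 3. Such repeats enter the SDs and the calls of overlap given here, and for Vhl the wild type spread of 0 is no measure of the spread between mice. The knockout values lay on both sides of the wild type value, and the difference was -0.007 ± 0.04 (SE). Hif1an encodes FIH, the asparagine hydroxylase (probe set 10463380). It read 10.73, 10.64, 10.70 and 10.68 in the wild type replicates, against 10.68, 10.70 and 10.61 in the knockouts, with overlapping groups and a difference of -0.02 ± 0.04 (SE). For both, the 95% interval lay within 0.12 of 0 on the log2 scale. The SE and interval of Vhl draw on its wild type spread of 0 and may be too narrow.

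Genes known to be switched on by HIF were then read as lists. Of 65 measured target genes, 0 passed an adjusted p of 0.05 in limma. At an unadjusted p under 0.05 there were 12 lower and 1 higher, beside 6.69% lower and 3.93% higher among all genes, and 44 of the 65 lay below wild type, as did 10635 of all 19938 genes. Their median difference was -0.05. The same shares of all genes, 6.69% lower and 3.93% higher, are the background of every later count at that unadjusted level. Outside the 9 genes and the endothelial list, 61 targets remained, with 10 lower and 1 higher at that unadjusted level and a median of -0.05.

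Targets of glucose metabolism pointed both ways. Of 18 measured, 2 were lower and 1 higher at an unadjusted p under 0.05 and the median was -0.02. Slc2a1, the glucose transporter GLUT1, read 9.62, 9.21, 9.39 and 9.48 in the wild type replicates, against 9.78, 10.33 and 9.61 in the knockouts, a difference of 0.48 ± 0.18 (SE; limma adjusted p = 0.42). Its highest array was knockout replicate 2, the array with the high Hif1a, and knockout replicate 3 lay within the wild type range. Of all genes, 10.01% were highest in knockout replicate 2. The mean of the 18 targets there was 10.94, inside the wild type range of 10.88 to 10.99. Gbe1, the glycogen branching enzyme, differed by -0.34 ± 0.12 and Slc16a3, the lactate exporter MCT4, by -0.19 ± 0.08, both with overlapping groups. The other 15 missed that level and differed by -0.29 to 0.21. Of these only Pgam1, a phosphoglycerate mutase with 3 probe sets, named after its value was seen, had every knockout array below every wild type array, with a difference of -0.13 ± 0.06.

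Targets that serve vessels, blood and oxygen delivery numbered 16, with 2 lower and 0 higher at an unadjusted p under 0.05 and a median of -0.04, which turned to 0.02 without knockout replicate 1. Cxcl12, a chemokine that guides vessel and blood cells, differed by -0.33 ± 0.09 and Flt1, a receptor for vascular endothelial growth factor, by -0.40 ± 0.14. Flt1 is at the same time an endothelial marker. Nos2, the inducible nitric oxide synthase, differed by -0.14 ± 0.06 and missed that level. Differences in the list ran from -0.40 to 0.71, with 6 above and 10 below wild type and a mean of -0.002. The most positive, named after their values were seen, were Angptl4 at 0.71 ± 0.38 and Hmox1 at 0.54 ± 0.31. Both had overlapping groups, missed that level and were highest in knockout replicate 2.

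Targets in mitochondria, growth arrest, acid balance and feedback formed the longest of the 3 target lists, which includes Egln1 and Egln3 themselves. Of 31 measured, 8 were lower and 0 higher at an unadjusted p under 0.05, beside 6.69% lower and 3.93% higher among all genes. Without overlap 5 were lower, beside 5.33% of all genes, and the median was -0.06. Egln1 was 1 of the 8 and 1 of the 5. Lonp1, a protease of the mitochondrial matrix, read 9.50, 9.48, 9.45 and 9.37 in the wild type replicates, against 9.33, 9.22 and 9.18 in the knockouts, a difference of -0.21 ± 0.05 (SE; limma adjusted p = 0.23). Mxi1, which opposes Myc, differed by -0.17 ± 0.05 without overlap, and Cox4i2, the cytochrome oxidase subunit form used at low oxygen, by -0.14 ± 0.05. Beside Egln1 and these 3, the other 4 at that unadjusted level, named after their values were seen, were P4ha2, a collagen prolyl hydroxylase subunit, at -0.31 ± 0.12 without overlap, Ak4, a mitochondrial adenylate kinase, at -0.50 ± 0.20, Bnip3l, a mitophagy receptor, at -0.15 ± 0.07 and Ndufa4l2, a mitochondrial protein induced by HIF-1α, at -0.12 ± 0.05. Ak4 and Bnip3l each had 2 probe sets, of which the brighter was read.

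**Figure D4:**
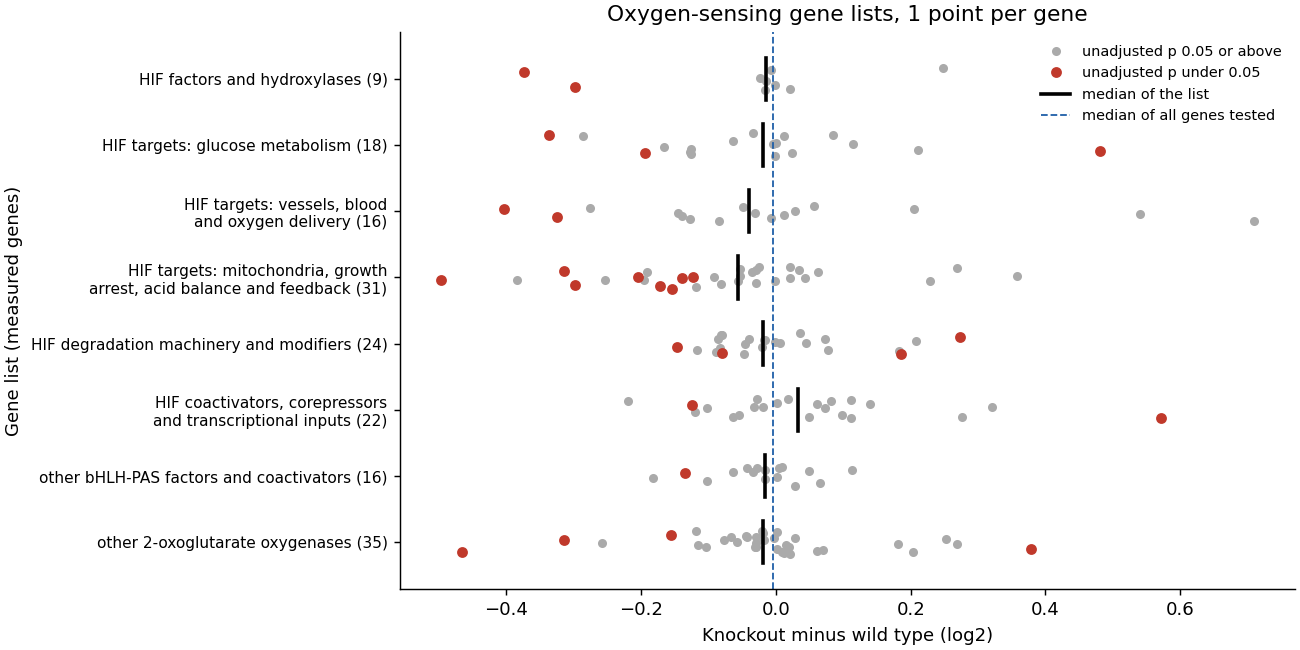
Each point is the knockout minus wild type difference of 1 gene on the log2 scale, in red where its unadjusted limma p was under 0.05, with a black bar at the median of the list and a dashed line at the median of all genes tested. The medians of all lists lie within 0.06 of 0, and 8 red points lie left of 0 among the 31 targets of mitochondria, growth arrest, acid balance and feedback.

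The proteins that destroy or modify HIF-α gave 24 measured genes, of which 2 were above and 2 below wild type at an unadjusted p under 0.05, with a median of -0.02 and 0 at an adjusted p under 0.05 in limma. Lamp2, a lysosomal membrane protein that takes part in chaperone-mediated autophagy, differed by 0.27 ± 0.07, with all knockout arrays above all wild type arrays. In the same arrays 11 of 13 macrophage and myeloid markers were higher at an unadjusted p under 0.05 in limma, beside 3.93% of all genes. At an adjusted p under 0.05 there were 2, beside 0.0201% of all genes. The mean level of these markers ran from 8.18 to 8.41 in wild type and from 8.79 to 8.92 in knockout arrays. Mcm7, a replication helicase subunit that also binds HIF-1α, differed by 0.19 ± 0.05 without overlap, and Sirt6, a deacetylase that restrains HIF-1α, by -0.15 ± 0.05.

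Coactivators, corepressors and transcriptional inputs of HIF gave 22 measured members. At an unadjusted p under 0.05, 1 was higher and 1 was lower, and 0 passed an adjusted p under 0.05 in limma, with a median of 0.03. Cited4, a protein that competes for the coactivator p300, read 9.09, 9.25, 9.44 and 9.52 in the wild type replicates, against 9.59, 9.85 and 10.25 in the knockouts. All knockout arrays lay above all wild type arrays, by a mean of 0.57 ± 0.17 (SE; limma adjusted p = 0.33). Cdk8, a kinase of the mediator complex, differed by -0.12 ± 0.04 without overlap and Ikbkb, a kinase upstream of NF-κB, by 0.10 ± 0.04. Of 16 measured relatives in the bHLH-PAS family, to which the HIF subunits belong, and its coactivators, 1 was lower and 0 higher at an unadjusted p under 0.05, and 0 passed an adjusted p of 0.05 in limma. These were led by Sim1 at -0.13 ± 0.06, Ncoa3 at -0.10 ± 0.06 and the clock gene Per2 at 0.11 ± 0.08.

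Enzymes that share the chemistry of Egln1 and Hif1an, the oxygenases that consume 2-oxoglutarate, gave 35 measured genes. At an unadjusted p under 0.05 there were 3 lower and 1 higher, their median was -0.02, and 0 passed an adjusted p of 0.05 in limma. Phyh, a peroxisomal hydroxylase for branched fatty acids, read 11.65, 11.49, 11.54 and 11.50 in the wild type replicates, against 11.12, 11.12 and 10.99 in the knockouts. Its groups did not overlap and its difference of -0.47 ± 0.05 (SE; limma adjusted p = 0.083) exceeded that of Egln1 in size. The collagen prolyl hydroxylase subunit P4ha3 differed by 0.38 ± 0.11 and the RNA demethylase Alkbh5 by -0.16 ± 0.05, both with groups that met at 1 value. Of 8 measured fibroblast markers, 3 were higher at an unadjusted p under 0.05 and 0 lower, beside 3.93% higher among all genes, and 0 passed an adjusted p of 0.05 in limma. Their differences ran from -0.28 to 0.71, with 2 of the 8 below wild type, and Dpt differed by 0.42 ± 0.08 and Pdgfra by 0.53 ± 0.11. Their mean level overlapped between the genotypes, at 10.17 to 10.55 in the wild type arrays and 10.38 to 10.76 in the knockout arrays. The part of other cell types in these values was not tested.

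The targeted genes and the tissue were checked on the same arrays. Prkaa1 (α1) differed by -0.51 ± 0.09 without overlap and Prkaa2 (α2) by -0.21 ± 0.07 with overlap, and neither passed an adjusted p of 0.05 in limma. The labels do not name the deleted exons, so genotype rests on the labels alone. The 15 muscle fibre markers averaged from 13.14 to 13.2035 in the wild type arrays and from 13.2044 to 13.31 in the knockout arrays. By that narrow margin every knockout array lay above every wild type array, the opposite direction to the vessel markers. Of the 15, 10 lay above and 5 below wild type, and 2 reached an unadjusted p under 0.05 upwards and 1 downwards. Their differences ran from -0.16 to 0.71, with a mean of 0.08 and a median of 0.03, so the mean leans on the largest. Array medians ran from 7.50 to 7.58. Myoglobin (Mb), the oxygen-binding protein of muscle, differed by -0.16 ± 0.04 and desmin (Des) by 0.14 ± 0.04, both without overlap. Adipocyte markers gave 2 of 5 lower at that unadjusted level, led by Adipoq at -0.34 ± 0.11 and Retn at -0.36 ± 0.14. Satellite cell markers gave 1 of 5 higher (Vcam1 at 0.30 ± 0.11) and 1 lower (Cdh15 at -0.09 ± 0.03). Of 4 Schwann cell markers and 2 erythroid markers 0 reached that level; among them Mbp differed by -0.04 ± 0.03, Sox10 by -0.05 ± 0.04, Alas2 by -0.29 ± 0.45 and Slc4a1 by 0.10 ± 0.16. Among the immediate early genes Fosl1 differed by 0.33 ± 0.12, and the myeloid markers were led by Lyz2 at 0.94 ± 0.05 (limma adjusted p = 0.0088) and Tyrobp at 0.63 ± 0.05 (limma adjusted p = 0.017).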

How the data were processed

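Per the labels' protocols, total RNA of the 7 muscles was biotin-labelled (Ambion WT Expression Kit). The design text speaks of mice, and 1 array was counted per mouse. The deposited table holds 28856 probe sets, and its values, from 4.41 to 14.65, were read as log2 expression, since a 16-bit scan cannot exceed 11.09 on a natural log scale; the base is inferred. Not given in the sources used here were the authors' background correction, normalization and summarization. Scaling between arrays, if done, hides a change common to all genes. Of the probe sets, 21789 had 1 symbol in the platform annotation and were tested, 1621 had several and 5446 none, and 21698 matched RefSeq (GRCm38.p6). A gene with several probe sets was read through the brightest, which gave 19938 genes.

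Differences are knockout minus wild type with moderated standard errors from limma 3.58.1 (lmFit, eBayes; R 4.3.3). P-values were adjusted by Benjamini-Hochberg over the 21789 probe sets, with a threshold of 0.05. Values joined by ± are a difference and its standard error unless marked SD. No filter or array weights were used. The members and the 7 pathway and 10 cell type or state lists were chosen with earlier results of these data known; 268 of 292 entries were measured. Text names all 9 members, 3 genes per pathway list and 2 per cell list by smallest p, the 3 genes nearest to the 2 members of widest spread, and others marked as named after their values were seen. The fit was tested on simulated data. Alternatives were array weights, quantile normalization, a replicate block, leaving out dim probe sets, centring on array medians, a robust trended prior, testing every probe set, the mean of a gene's probe sets, an adjusted p under 0.10, leaving out each array and, for levels relative to endothelial markers, their median.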

Additional observations from a re-analysis of the deposited data

Results flagged for a closer look

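Among 58 genes checked, 6 had 1 wild type array of 4 far from the other 3, where chance sets about 1 group in 20 apart if values are distinct and genes independent. Neither holds here: exact repeats are common, the Hif1a values include 1 repeat and the 3 other Ttpal values are identical, and Ttpal was named because its array values follow Hif1a. Hif1a read 9.805 in wild type replicate 4 and between 9.955 and 9.956 in the other wild type arrays. Prkaa2 read 12.03 in wild type replicate 2 and between 12.28 and 12.30 in the others, and Kcnj8 read 9.698 there against 9.776 to 9.789. Atf3 read 10.02 in wild type replicate 2 and 8.41 to 8.64 in the others. Vcam1 read 7.490 in wild type replicate 3 against 7.657 to 7.682, and Ttpal 7.469 in wild type replicate 4 against 7.690 in all 3 others.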

How the results depend on the processing

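Epas1 and Egln1 were lower in knockout muscle under all 16 alternatives, with differences from -0.41 to -0.30 for Epas1 and from -0.35 to -0.25 for Egln1. Not all of the 16 could change these differences. The dim filter, the robust trended prior, testing every probe set, the mean of probe sets and the looser threshold left both unchanged. Such settings cannot move the difference of a gene with 1 probe set. The replicate block repeated the differences found without wild type replicate 4, which was alone in its block. Neither gene reached an adjusted p of 0.05 in limma under any alternative: the range was 0.085 to 0.39 for Epas1 and 0.081 to 0.47 for Egln1. Both were under 0.10 after quantile normalization, and Egln1 also without knockout replicate 1 (0.090). How many of all genes were under 0.10 in these fits was not counted. The count of the 9 genes at an unadjusted p under 0.05 was 2 or 3, with Hif1a added under array weights (0.40 ± 0.15). These weights were 1.43 for knockout replicate 2, the array with the high Hif1a, and 0.82 and 0.29 for knockout replicates 1 and 3. Without knockout replicate 2 the Hif1a difference was 0.04. With the replicate number as a block, Epas1 differed by -0.41, Egln1 by -0.30 and the count over all genes was 0; same-numbered arrays deviated together with r = 0.29, 0.16 and -0.20 for numbers 1, 2 and 3 across genes, so the numbers were not taken as pairs, and not every array correlated best with its own number. The sign of 6 small differences turned in some fits. Quantile normalization gave 0.00455 for Egln2 and 0.0121 for Egln3, and array weights 0.0783 for Egln3. With 1 array left out, differences ran from -0.0612 to 0.0303 for Hif3a, -0.00592 to 0.0576 for Arnt, -0.0549 to 0.00539 for Egln2, -0.202 to 0.170 for Egln3, -0.0397 to 0.0433 for Vhl and -0.0435 to 0.00296 for Hif1an.

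The median of the glucose metabolism targets was -0.00795 with the replicate block, -0.0366 after median centring and -0.0351 under array weights, and -0.0611 to -0.00285 with 1 array left out. The median of the 2-oxoglutarate oxygenases was -0.0102 after quantile normalization, -0.0356 after median centring and -0.00875 under array weights. It was -0.0249 to 0.000139 with 1 array left out. Quantile normalization also called 1 of these 35 genes, beside 6 of all 19938 genes in that fit. With 1 array left out, the median ran from -0.0854 to -0.0661 for the mitochondrial and feedback targets, from -0.0554 to -0.00476 for the degradation genes and from -0.0787 to 0.0166 for the vessel and oxygen delivery targets. Egln1 relative to the median of the endothelial markers differed by 0.0497. The count over all genes was 5, and by array left out it was 0 (wild type replicate 1, 3 or 4), 1 (wild type replicate 2), 2 (knockout replicate 2), 6 (knockout replicate 3) or 14 (knockout replicate 1). Why these values moved was not tested. The number of arrays, 4 and 3, limits the precision of every difference.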
